A study of Mus musculus with 15 samples.

Results

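Mouse myeloma cell lines can differ by genes that a single line hardly transcribes while its companions all do. In 5 lines, 44 genes of the 32316 with a unique name were near zero in exactly 1 line and plainly read in the other 4. Levels are CPM, the estimated counts of a gene scaled to a common library total, and the rule took the mean of the 3 libraries of a line. A gene was kept if that mean was under 0.2 CPM in 1 line and at least 2 CPM in each of the other 4. The rule met 53 genes, of which 3 were dropped by name patterns of immunoglobulin, histocompatibility, predicted and pseudogenes and 6 by single names. The genes were thus chosen by the very CPM values described here, and the difference between the low line and the other lines is given as a description, without a test.

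The lines IL6Myc-1 to IL6Myc-5 come from mice of the genotype IL6Myc, an immunocompetent model of aggressive multiple myeloma, a cancer of antibody-secreting plasma cells. They carry no further treatment or allele in the labels, and normal plasma cells were not analysed here. Each line was sequenced in 3 technical replicates, 15 libraries in all, so that 1 line stands for 1 biological unit and p-values measure only the spread between technical libraries. What drives the transgenes, and in which cells, is not part of the labels.

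The libraries held 19068543 to 41165599 estimated counts. IL6Myc-1 was the most deeply read line with 86376296 counts over its 3 libraries, against 66677635 to 77621082 in the other lines. A level of 3 counts over a line, the limit that a count of 0 allows, was 0.0347 CPM in IL6Myc-1, 0.0450 CPM in IL6Myc-2, 0.0386 CPM in IL6Myc-3, 0.0402 CPM in IL6Myc-4 and 0.0421 CPM in IL6Myc-5. Such limits and the ratio intervals below cover counting error only. All 10 plasma cell markers stood at 1 CPM or more in every line, and their summed level was 12503 to 17284 CPM. The erythroid, stromal, T and NK cell and myeloid markers summed to at most 0.439, 1.51, 9.47 and 10.2 CPM. Single markers in these sums were read, with Itgam at 9.88 and Cd3d at 6.51 CPM in IL6Myc-2 and Cd4 at 3.13 CPM in IL6Myc-4. In IL6Myc-2, 1 of the 8 myeloid and 2 of the 9 T and NK cell markers reached 1 CPM. Of the 4 endothelial markers Pecam1 was read at 15.2 to 27.5 CPM and the defining genes Cdh5 and Kdr had 0 counts in every line.

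A cell line grown from 1 tumour carries the chromosomal losses, promoter silencing and cell-state choices of that tumour, and each can leave a gene without transcript. Genes of 1 promoter region, 1 imprinted domain or 1 tandem array are often read or silent together. RNA levels do not tell a lost gene from a silent one, and neither was tested here. A gene near zero in bulk RNA could also be present in few cells of the line, which cannot be told apart from little RNA per cell.

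The 44 genes were spread unevenly over the lines. IL6Myc-1 was near zero for 26 of them, IL6Myc-4 for 12, IL6Myc-2 for 3, IL6Myc-5 for 2 and IL6Myc-3 for 1. The number of genes that could have been chosen hardly differed, with 9484 to 9589 genes at 2 CPM or more in the other 4 lines. The members made up 0.271% of those genes for IL6Myc-1 and 0.0105% for IL6Myc-3. All 44 are annotated as protein-coding, and they lie on 19 chromosomes, with at most 5 on any of them (chromosome 1). No member had another member of its own line among its 3 nearest expressed genes on either side.

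IL6Myc-1 was near zero for Spon1, Sox4, Ckb, Fat1, Ctbp2, Crocc2, Acot7, Lsr, Sirpa, Rhox2h, Tox2, B4galnt1, Ddhd1, Rab11fip1, Ptprj, Ssh1, Adcy6, Zfp579, Phlpp1, Slco5a1, Sgce, Lysmd2, Insr, Dync2li1, Tmem138 and Rbms3. IL6Myc-2 was near zero for Ly6k, Jcad and Sh3rf1, and IL6Myc-3 for Rims1. IL6Myc-4 was near zero for Lratd2, Igfbp3, Arfgef3, Rnf130, Rassf3, Dnajc6, Mgarp, Cnksr3, Hoxd9, Nenf, Tmem64 and Pard6g. IL6Myc-5 was near zero for Lrpap1 and Xlr4a.

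The promoter windows of 6 genes are shown as a description, to set CpG-rich windows beside those of tandem copies, and no test used them. Rnf130 and Igfbp3 have the windows richest in CpG among the members with a window that were read at 0 or 1 count in IL6Myc-4. Rassf3, also at 0 counts there, had no window. Rhox2h and Xlr4a are members of tandem arrays on the X chromosome, each shown with a relative 3 expressed genes away that was also near zero. Each window is the 250 bases before the first listed RefSeq start of the gene, from the GRCm38.p6 assembly. It is written 5′ to 3′ on the strand of the gene, with CpG dinucleotides in capitals. Rnf130 lies on the plus strand (chr11:50025081-50025330), Igfbp3 on the minus strand (chr11:7213924-7214173), Rhox2h on the minus strand (chrX:37673278-37673527), Rhox2d on the plus strand (chrX:37493160-37493409), Xlr4a on the minus strand (chrX:73082508-73082757) and Xlr4b on the plus strand (chrX:73214083-73214332). None of these bases falls in an exon of the GENCODE M21 annotation.
Rnf130: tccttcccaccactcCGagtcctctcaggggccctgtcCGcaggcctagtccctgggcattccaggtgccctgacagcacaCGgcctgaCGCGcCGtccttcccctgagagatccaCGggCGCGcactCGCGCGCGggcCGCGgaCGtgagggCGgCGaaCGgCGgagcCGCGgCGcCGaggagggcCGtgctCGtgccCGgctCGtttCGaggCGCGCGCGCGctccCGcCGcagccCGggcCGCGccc
Igfbp3: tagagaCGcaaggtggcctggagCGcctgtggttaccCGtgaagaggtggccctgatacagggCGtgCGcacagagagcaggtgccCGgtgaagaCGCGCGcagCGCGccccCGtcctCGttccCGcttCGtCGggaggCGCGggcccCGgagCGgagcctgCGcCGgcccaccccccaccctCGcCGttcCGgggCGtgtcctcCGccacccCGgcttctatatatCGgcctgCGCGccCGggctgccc
Rhox2h: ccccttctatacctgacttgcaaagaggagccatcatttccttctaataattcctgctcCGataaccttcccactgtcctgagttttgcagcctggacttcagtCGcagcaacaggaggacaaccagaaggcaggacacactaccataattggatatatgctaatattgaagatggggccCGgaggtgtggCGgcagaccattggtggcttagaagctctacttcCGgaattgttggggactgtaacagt
Rhox2d: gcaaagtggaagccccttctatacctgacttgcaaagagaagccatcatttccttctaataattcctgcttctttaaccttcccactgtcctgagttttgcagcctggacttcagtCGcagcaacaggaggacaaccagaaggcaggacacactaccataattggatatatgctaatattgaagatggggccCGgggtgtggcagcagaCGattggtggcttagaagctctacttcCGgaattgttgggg
Xlr4a: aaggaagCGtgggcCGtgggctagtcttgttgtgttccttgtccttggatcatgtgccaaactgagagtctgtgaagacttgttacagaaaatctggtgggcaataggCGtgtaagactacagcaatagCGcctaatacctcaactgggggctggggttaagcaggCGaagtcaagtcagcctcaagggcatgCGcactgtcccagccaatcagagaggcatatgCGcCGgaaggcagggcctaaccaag
Xlr4b: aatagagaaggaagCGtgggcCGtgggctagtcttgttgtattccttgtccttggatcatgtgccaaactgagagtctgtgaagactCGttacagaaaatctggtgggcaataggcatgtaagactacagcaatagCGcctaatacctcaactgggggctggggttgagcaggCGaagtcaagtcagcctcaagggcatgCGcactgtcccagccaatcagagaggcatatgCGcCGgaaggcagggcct
The Rnf130 window held 39 CpG and the Igfbp3 window 32. The windows of Rhox2h and Rhox2d held 5 and 4, and those of Xlr4a and Xlr4b held 8 each. Of 238 aligned bases 97.5% were the same in Rhox2h and Rhox2d, and of 243 aligned bases 98.4% were the same in Xlr4a and Xlr4b. Rhox5, which lies beside Rhox2h, shared 54.1% of 231 aligned bases with it.

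Only the first listed start of each gene was used, so the shares below do not cover other starts of a gene. A window was in the RefSeq table for 26 of the 44 members. The window was CpG-rich, with at least 50% G and C and a ratio of observed to expected CpG of at least 0.6, in 12 of the 26 (46.2%), beside 63.5% of the 9342 tested genes with a window. The letters TATAAA were found on either strand in 11.5% of the members' windows, beside 6.12% of all. CCAAT was found in 23.1%, beside 37.9%, and GGGCGG in 53.8%, beside 59.0%. No motif is part of another. The CpG-rich windows were those of Ckb, Ddhd1, Phlpp1, Sox4, Ssh1, Tox2, Rims1, Arfgef3, Cnksr3, Igfbp3, Rnf130 and Lrpap1, so that members with and without such a window were found among the genes near zero in IL6Myc-1 and in IL6Myc-4.

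**Figure D1:**
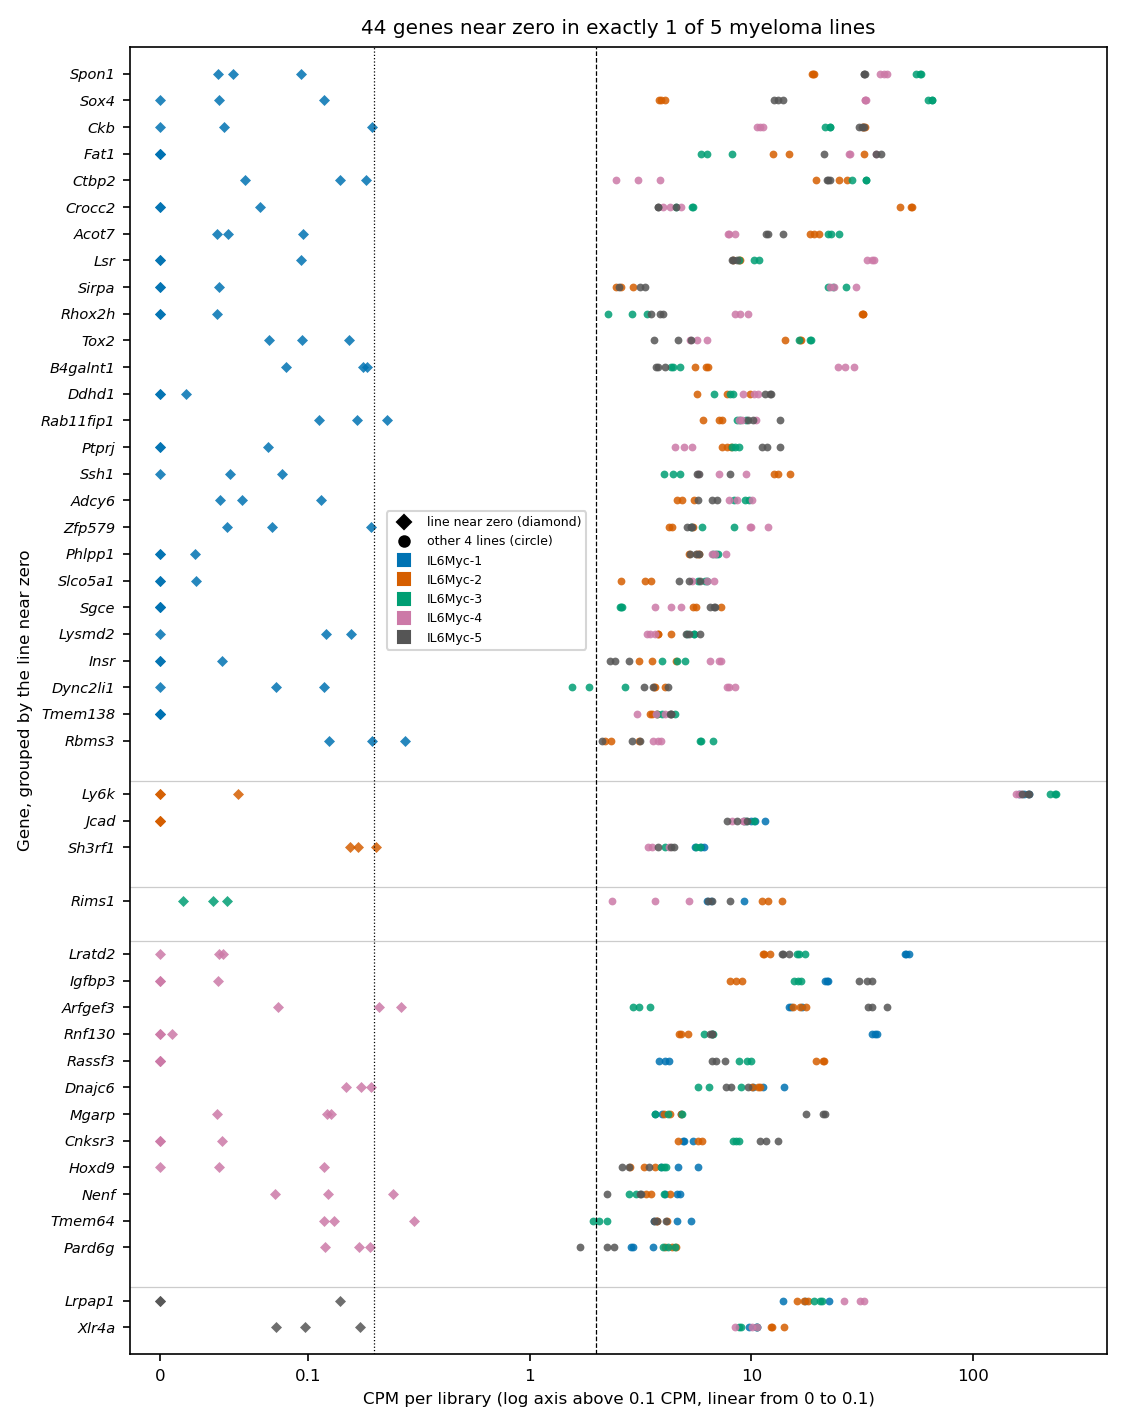
Level of each of the 44 genes in each library, in CPM on an axis that is linear up to 0.1 and logarithmic above. Diamonds are the 3 libraries of the line near zero, circles the 12 libraries of the other lines, colours name the line, and the vertical lines mark the thresholds of 0.2 and 2 CPM. No diamond lies above 0.302 CPM and no circle below 1.55 CPM.

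The rule itself asks for a gap between the low line and the other lines, so the separation described here is no finding. Of the 132 libraries of low lines, counting 3 for each member, 52 had 0 counts. The highest single value in a low line was 0.302 CPM, for Tmem64. The lowest in any other line was 1.55 CPM, for Dync2li1. Single libraries of the 2 sides overlapped for no member, which follows largely from the rule on their means. In the low line, 6 members had 0 counts in all 3 libraries after rounding: Fat1, Sgce, Tmem138, Jcad, Rassf3 and Rnf130. The mean over the other 4 lines was 3.45 to 183 CPM, with a median of 9.39 CPM. Just inside the lower threshold were Rbms3 at 0.198 CPM in IL6Myc-1, and Arfgef3 and Tmem64 at 0.184 CPM in IL6Myc-4. Just outside it were Lrrk1, Krt18 and Cln8 at 0.208, 0.217 and 0.229 CPM in IL6Myc-1. At the upper threshold, Dync2li1 and Tmem64 were just inside with 2.03 and 2.08 CPM in their second lowest line, and Calhm6 and Lrp12 just outside with 1.99 and 1.94 CPM.

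Among the genes near zero in IL6Myc-1, several encode proteins of the cell surface, the matrix and adhesion. Spon1, which encodes the secreted matrix protein F-spondin, had 0.0954, 0.0395 and 0.0496 CPM in IL6Myc-1, against 18.6, 19.1 and 18.9 in IL6Myc-2, 55.2, 57.3 and 58.1 in IL6Myc-3, 39.4, 40.9 and 37.9 in IL6Myc-4 and 32.2, 32.4 and 32.1 in IL6Myc-5. Fat1, a giant atypical cadherin, had 0 counts in the 3 IL6Myc-1 libraries, against 32.0, 12.5 and 14.8 CPM in IL6Myc-2, 5.93, 6.29 and 8.20 in IL6Myc-3, 27.5, 27.7 and 36.5 in IL6Myc-4 and 38.2, 36.3 and 21.2 in IL6Myc-5. IL6Myc-1 was lowest for both genes by the rule, and within IL6Myc-2 one Fat1 library, at 32 CPM, stood above the other libraries. Fat1 was at least 196-fold lower in IL6Myc-1, taken at the limit of 3 counts, than in IL6Myc-3, the line next to it. None of the 6 other genes listed with Fat1, which were FAT and Dachsous cadherin genes and Fjx1, was expressed highly enough to be tested.

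Sirpa, the inhibitory receptor that binds CD47, was read by 1 count in IL6Myc-1, against 2.65 ± 0.247 CPM in IL6Myc-2 and a top level of 25.3 ± 3.77 CPM in IL6Myc-4 (SD, n = 3 each). Its ratio of IL6Myc-2 to IL6Myc-1 was 229 with a counting interval of 41.1 to 9053 (exact, 95%). Insr, the insulin receptor, was read by 2 counts in IL6Myc-1, against 2.52 ± 0.263 CPM in IL6Myc-5, the next lowest line, and 6.95 ± 0.414 CPM in IL6Myc-4 (n = 3 each). Ptprj, a receptor-type tyrosine phosphatase, was read by 3 counts in IL6Myc-1, against 4.96 to 12.1 CPM as means of the other lines. Lsr, a receptor of lipoproteins that is also found at cell junctions, had 4 counts in IL6Myc-1, against means from 8.33 CPM in IL6Myc-5 up to 34.6 CPM in IL6Myc-4. Of the 31-base words of Lsr transcripts, 36.3% also occur in transcripts of Gm4673, so that its reads could be shared.

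Transcription factors and corepressors form a second group. Sox4, a factor with an HMG box that is needed in early B cell development, had 0.118, 0.0402 and 0 CPM in IL6Myc-1, against 3.83, 4.08 and 3.93 in IL6Myc-2, 62.2, 65.4 and 65.3 in IL6Myc-3, 32.8, 32.3 and 32.5 in IL6Myc-4 and 13.1, 12.6 and 13.9 in IL6Myc-5. Among the other 4 lines, no 2 overlapped in their libraries. Of the 31-base words of Sox4 transcripts, 54.7% also occur in other genes, mainly Gm26735, so that its reads could be shared. Ctbp2, a corepressor recruited by DNA-binding factors, had 0.183, 0.140 and 0.0576 CPM in IL6Myc-1, against 27.0, 19.5 and 24.9 in IL6Myc-2, 32.7, 28.4 and 32.6 in IL6Myc-3, 3.09, 3.88 and 2.45 in IL6Myc-4 and 22, 22.5 and 21.9 in IL6Myc-5. IL6Myc-1 lay below all, IL6Myc-4 was the second low line, and the libraries of IL6Myc-2 and IL6Myc-5 overlapped. Its paralog Ctbp1 was at 117 ± 8.98 CPM in IL6Myc-1, against means of 108 to 130 CPM in the other lines, and was not called (log2 difference -0.06, edgeR adjusted p = 0.364). Tox2, another factor with an HMG box, had 8 counts over IL6Myc-1 and 4.56 to 17.8 CPM as means of the other lines, and the zinc finger gene Zfp579 had 11 counts and 4.69 to 10.6 CPM.

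Enzymes of metabolism and signalling make up a further group of genes near zero in IL6Myc-1. Ckb, the brain-type creatine kinase, had 0.0437, 0.195 and 0 CPM in IL6Myc-1, against 31.7, 32.3 and 31.9 in IL6Myc-2, 22.7, 22.5 and 21.4 in IL6Myc-3, 11, 10.6 and 11.3 in IL6Myc-4 and 30.6, 31.4 and 32.1 in IL6Myc-5. IL6Myc-2 and IL6Myc-5 overlapped at the top, while IL6Myc-1 stood apart at the bottom. The others were the acyl-CoA thioesterase Acot7, the ganglioside synthase B4galnt1, the phospholipase Ddhd1, the cofilin phosphatase Ssh1, the adenylyl cyclase Adcy6 and Phlpp1, a phosphatase that removes activating phosphate from AKT. Ddhd1 and Phlpp1 had 1 count each over IL6Myc-1, against 7.66 to 11.9 CPM and 5.56 to 7.06 CPM as means of the other lines. Their paralogs were read in IL6Myc-1: Ddhd2 at 18.1 ± 1.38 CPM, against 11.9 to 19.1 CPM in the other lines, and Phlpp2 at 13.4 ± 0.669 CPM, against 7.58 to 15.1 CPM. Neither paralog was called (edgeR adjusted p = 0.663 and 0.130).

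Genes of cilia and of the cell interior were also among them. Crocc2, a relative of the ciliary rootlet protein, had 0.0681, 0 and 0 CPM in IL6Myc-1, against 53.1, 46.6 and 52.2 in IL6Myc-2, 5.40, 4.55 and 5.46 in IL6Myc-3, 4, 4.30 and 4.82 in IL6Myc-4 and 4.59, 3.81 and 3.78 in IL6Myc-5. IL6Myc-2 stood far above the other lines, and IL6Myc-3, IL6Myc-4 and IL6Myc-5 overlapped. Tmem138, a membrane protein of cilia, had 0 counts in IL6Myc-1, at least 104-fold lower than the 3.60 ± 0.128 CPM of IL6Myc-2. Dync2li1, a subunit of the dynein that carries cargo within cilia, had 7 counts over IL6Myc-1 and 2.03 to 8.01 CPM as means elsewhere. Rab11fip1, an effector of the recycling endosome, had 15 counts, and Slco5a1, a member of the organic anion transporter family, had 1. Lysmd2 with 9 counts and the RNA-binding protein gene Rbms3 with 18 complete the genes near zero in IL6Myc-1, next to Sgce and Rhox2h, which are described with their loci.

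IL6Myc-2 was near zero for the most highly expressed of all members. Ly6k, a surface protein of the LY6 family held by a lipid anchor, had 0, 0.0527 and 0 CPM in IL6Myc-2, against 161, 177 and 170 in IL6Myc-1, 236, 233 and 222 in IL6Myc-3, 156, 163 and 161 in IL6Myc-4 and 166, 175 and 178 in IL6Myc-5. A single count in IL6Myc-2 stood against more than 150 CPM in each of the other 12 libraries, and among these IL6Myc-3 was the only line apart from the rest. The ratio of IL6Myc-4, the next lowest line, to IL6Myc-2 was 10686 with an exact counting interval of 1918 to 422088. Of the 31-base words of Ly6k transcripts, 39.1% also occur in transcripts of Gm17189, so that reads could be shared with that gene. Of 8 tested genes of the LY6 list, none was called lower or higher in IL6Myc-2, beside 4.08% and 8.60% of all tested genes. Ly6g6g, which is not on that list, was called lower and is described with the locus of Ly6k. Ly6e was at 5883 ± 66.5 CPM in IL6Myc-2, against 4739 to 9771 CPM in the other lines, and Ly6d at 1676 ± 66.8 CPM, against 597 to 1614 CPM.

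The other 2 genes near zero in IL6Myc-2 were more weakly expressed elsewhere. Jcad, a protein of endothelial cell junctions, had 0 counts in the 3 IL6Myc-2 libraries, against 11.5, 9.92 and 10.4 CPM in IL6Myc-1, 9.42, 10.2 and 9.30 in IL6Myc-3, 9.22, 8.16 and 9.14 in IL6Myc-4 and 8.62, 9.5 and 7.73 in IL6Myc-5. The other 4 lines overlapped in part, with IL6Myc-1 above IL6Myc-4. At the limit of 3 counts, Jcad was at least 192-fold lower in IL6Myc-2 than in IL6Myc-5. Sh3rf1, a scaffold of JNK signalling with ubiquitin ligase activity, had 0.203, 0.169 and 0.156 CPM in IL6Myc-2, against 5.58, 5.90 and 6.09 in IL6Myc-1, 4.06, 5.86 and 5.63 in IL6Myc-3, 3.57, 4.27 and 3.43 in IL6Myc-4 and 4.49, 4.35 and 3.78 in IL6Myc-5. It lay close to the threshold and had counts in each IL6Myc-2 library. On library sizes scaled by TMM its IL6Myc-2 level was 0.209 CPM, past the threshold of the rule. Its relative Sh3rf2 was also lower in IL6Myc-2, with 0.212, 0.0774 and 0.0535 CPM, against 0.488 to 2.52 CPM in the other 12 libraries (log2 difference -3.44 ± 0.32 SE, edgeR adjusted p = 7.26e-08).

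IL6Myc-3 was near zero only for Rims1, a scaffold of the presynaptic active zone. Rims1 had 0.0363, 0.0452 and 0.0160 CPM in IL6Myc-3, against 6.28, 6.60 and 9.26 in IL6Myc-1, 13.8, 11.2 and 11.9 in IL6Myc-2, 5.25, 2.35 and 3.68 in IL6Myc-4 and 6.38, 8.04 and 6.61 in IL6Myc-5. IL6Myc-2 was highest, IL6Myc-4 second lowest, and IL6Myc-1 and IL6Myc-5 overlapped.

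Among the genes near zero in IL6Myc-4, Igfbp3 encodes a secreted carrier of insulin-like growth factors. It had 0, 0 and 0.0394 CPM in IL6Myc-4, against 21.4, 21.8 and 22.2 in IL6Myc-1, 9.07, 8.49 and 8 in IL6Myc-2, 16.7, 15.6 and 16.1 in IL6Myc-3 and 34.9, 33.0 and 30.6 in IL6Myc-5. A single count in IL6Myc-4 stood against 4 lines that each had a level of their own. The ratio of IL6Myc-2 to IL6Myc-4 was 636 with an exact counting interval of 114 to 25132.

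Rnf130, a membrane-bound ubiquitin ligase of the PA-TM-RING family known as Goliath in the fruit fly, had 0, 0 and 0.00821 CPM in IL6Myc-4, against 36.2, 36.7 and 35.0 in IL6Myc-1, 4.72, 5.18 and 4.80 in IL6Myc-2, 6.72, 6.10 and 6.62 in IL6Myc-3 and 6.65, 6.48 and 6.66 in IL6Myc-5. Rassf3, of the RASSF family of RAS association proteins, had 0 counts in IL6Myc-4, against 4.25, 4.10 and 3.83 CPM in IL6Myc-1, 21.2, 19.6 and 21.1 in IL6Myc-2, 9.99, 8.77 and 9.54 in IL6Myc-3 and 6.65, 6.94 and 7.63 in IL6Myc-5. The line at the top differed, IL6Myc-1 for Rnf130 and IL6Myc-2 for Rassf3, and both genes were at or under the limit of counting in IL6Myc-4. At the limit of 3 counts, they were at least 122-fold and 101-fold lower in IL6Myc-4 than in the line next to it.

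No tested relative of these 2 genes in their family lists was called lower in IL6Myc-4. Of the 4 tested relatives of Rnf130 in its ligase family, none was called lower or higher, beside 4.37% and 5.28% of all tested genes, with levels of 43.8 CPM for Rnf13, 7.07 for Rnf128, 79.7 for Rnf149 and 74.0 for Rnf167 in IL6Myc-4. Of 9 tested genes of the RASSF list, which includes the kinases Stk3 and Stk4 and their partner Sav1, none was called lower and 2 were called higher, beside the same shares. Rassf4 was also read by 3 counts (0.0377 CPM) in IL6Myc-4, against 0 in IL6Myc-5 and 0.272 to 7.33 CPM in the other 3 lines, and its comparison could not be fitted. Rassf8 was at 13.6 ± 0.915 CPM in IL6Myc-4, against 2.94 to 9.23 CPM as means of the other lines (log2 difference 1.17 ± 0.13 SE, edgeR adjusted p = 6.09e-07). Rassf2, with 2.49 ± 0.286 CPM in IL6Myc-4 and 0.232 to 2.30 CPM in the others, differed by 1.01 ± 0.17 SE on the log2 scale (adjusted p = 8.37e-05) and lost its call when any 1 of 7 libraries was left out, with a lowest difference of 0.91.

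Lratd2, Arfgef3 and Dnajc6 were the other members with the highest levels outside IL6Myc-4. Lratd2, a protein with a lecithin retinol acyltransferase domain, had 0, 0.0428 and 0.0400 CPM in IL6Myc-4, against 49.6, 49.3 and 51.5 in IL6Myc-1, 11.4, 11.3 and 12.2 in IL6Myc-2, 17.4, 16.4 and 16 in IL6Myc-3 and 14.7, 13.8 and 13.7 in IL6Myc-5. Arfgef3, of the family of exchange factors for ARF proteins, had 0.264, 0.209 and 0.0800 CPM in IL6Myc-4, against 16.8, 14.7 and 15 in IL6Myc-1, 16.5, 15.4 and 17.5 in IL6Myc-2, 2.92, 3.10 and 3.50 in IL6Myc-3 and 34.9, 40.9 and 33.6 in IL6Myc-5. Dnajc6, the clathrin-uncoating factor auxilin, had 0.174, 0.193 and 0.149 CPM in IL6Myc-4, against 11.3, 14 and 10.1 in IL6Myc-1, 10.1, 10.7 and 11 in IL6Myc-2, 9.01, 6.42 and 5.72 in IL6Myc-3 and 9.66, 8.06 and 7.69 in IL6Myc-5. The highest line was IL6Myc-1 for Lratd2 and IL6Myc-5 for Arfgef3, while the 4 lines overlapped in part for Dnajc6. Lratd2 shares 41.1% of its 31-base words with other annotated genes. Of the remaining 6 genes, the signalling scaffold gene Cnksr3 had 1 count, the homeobox gene Hoxd9 had 4, Mgarp had 7, Nenf, which encodes a secreted factor, had 11, the polarity gene Pard6g had 12 and Tmem64 had 14 over IL6Myc-4. Hoxd8, beside Hoxd9 in the HoxD cluster, was read at 13.5, 14 and 12.7 CPM in IL6Myc-4, against 12.5 to 33.5 CPM in the other libraries.

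IL6Myc-5 was near zero for Lrpap1, a chaperone that keeps endocytic receptors such as Lrp1 from binding ligands before they reach the surface. Lrpap1 had 0, 0.139 and 0 CPM in IL6Myc-5, against 17.4, 13.9 and 22.4 in IL6Myc-1, 17.9, 17.3 and 16.1 in IL6Myc-2, 19.1, 20.5 and 20.8 in IL6Myc-3 and 32.3, 26.0 and 30.9 in IL6Myc-4. IL6Myc-4 was highest, and IL6Myc-1, with the widest spread, overlapped both IL6Myc-2 and IL6Myc-3. The ratio of IL6Myc-2 to IL6Myc-5 rested on 3 counts in IL6Myc-5 and was 406 with an exact counting interval of 139 to 1968.

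Some members lay beside genes that were low or high in the same line. For each member the nearest 3 expressed genes on each side in the gene order of the GRCm38.p6 assembly were taken, 261 genes in all, and the low line was set against the mean of the other 4 with edgeR's quasi-likelihood test. A call needed an adjusted p below 0.05 together with a log2 difference of 1 or more. Of the 261 neighbours 17 were called lower (6.51%), beside 6.46% of all tested genes weighted by line, and 9 were called higher (3.45%), beside 4.95%. For IL6Myc-1 it was 12 of 153 lower (7.84%), beside 8.11% of all tested genes, and 5 higher (3.27%), beside 4.39%. For IL6Myc-4 it was 3 of 72 lower (4.17%), beside 4.37%, and 2 higher (2.78%), beside 5.28%. For IL6Myc-2 it was 1 of 18 lower, beside 4.08%, and 1 higher, beside 8.60%. For IL6Myc-5 it was 1 of 12 lower, beside 3.19%, and 1 higher, beside 4.80%, and for IL6Myc-3 none of 6 either way, beside 3.05% and 4.60%. The shares lay near the background, so these counts show no result about the 261 neighbours as a whole, whose median log2 difference was -0.05. Beyond a log2 difference of 4, a limit chosen after the data were seen, there were 6 neighbours lower (2.30%, beside 1.12%) and 2 higher (0.766%, beside 0.509%). They were 4 lower and 2 higher in IL6Myc-1 (beside 1.50% and 0.450% of all tested genes), 1 lower and none higher in IL6Myc-2 (beside 0.552% and 1.28%) and 1 lower and none higher in IL6Myc-5 (beside 0.272% and 0.340%). There were none in IL6Myc-3 (beside 0.0764% and 0.552%) and none in IL6Myc-4 (beside 0.671% and 0.467%). Without the Rhox and Xlr genes, 254 neighbours were left. At the first limit 13 of them were lower (5.12%, beside 6.47%) and 9 higher (3.54%, beside 4.96%). Beyond a log2 difference of 4, 2 were lower (0.787%, beside 1.12%) and 2 higher (0.787%, beside 0.512%). The share of lower neighbours beyond that limit was thus above the background only with the Rhox and Xlr genes.

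**Figure D2:**
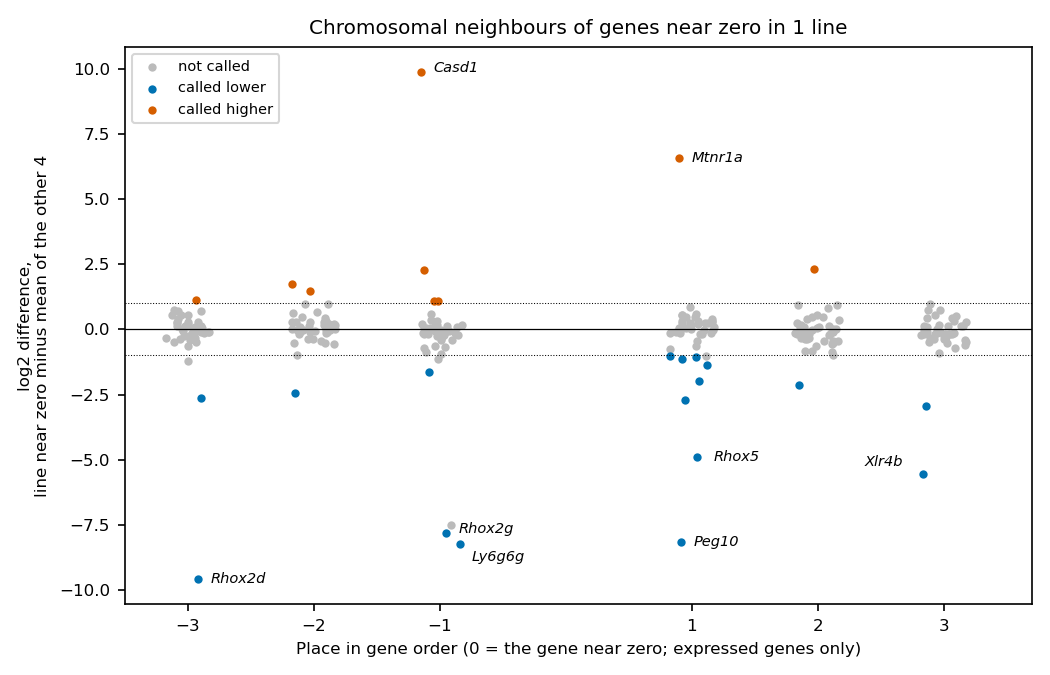
Log2 difference of each neighbour in the line near zero minus the mean of the other 4 lines, by its place in the order of expressed genes, with the member at 0. Points beyond the dotted lines at -1 and 1 that passed the test are coloured, and grey points were not called. Most of the 261 genes lie between the dotted lines, and Rhox2d, Ly6g6g, Peg10, Rhox2g, Xlr4b and Rhox5 are the lowest called genes, while Casd1 and Mtnr1a are the highest. Fitted differences of genes with 0 counts in a line depend on the prior count.

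The largest of these neighbour differences fell at a few loci. Sgce, which encodes epsilon-sarcoglycan and is expressed from the paternal copy, had 0 counts in IL6Myc-1, against 5.60, 5.43 and 7.32 CPM in IL6Myc-2, 2.56, 2.61 and 2.59 in IL6Myc-3, 4.79, 4.34 and 3.68 in IL6Myc-4 and 6.86, 6.5 and 6.76 in IL6Myc-5. Peg10, the paternally expressed gene next to it in the same imprinted domain, also had 0 counts in IL6Myc-1, against 0.740, 0.780 and 0.727 CPM in IL6Myc-2, 0.948, 1.46 and 1.10 in IL6Myc-3, 1.18, 1.73 and 1.7 in IL6Myc-4 and 2.49, 2.84 and 3.28 in IL6Myc-5 (edgeR adjusted p = 6.67e-09). Both genes of the pair were thus listed at 0 in the same line and read in all 12 other libraries. Casd1, on the other side of Sgce and known for adding acetyl groups to sialic acids, showed the reverse, with 4.79, 5.28 and 4.36 CPM in IL6Myc-1 and 0 counts in the 12 other libraries (adjusted p = 2.37e-08). Which parental copies the lines carry was not tested.

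Fat1 had a neighbour of the opposite pattern as well. Mtnr1a, the melatonin receptor gene next to Fat1, had 20.5, 19.2 and 21.2 CPM in IL6Myc-1, against 0.326, 0.604 and 0.414 in IL6Myc-2, 0.729, 0.626 and 0.707 in IL6Myc-3, 0.0379, 0 and 0 in IL6Myc-4 and 0.120, 0.473 and 0.262 in IL6Myc-5. Mtnr1a was read well in the line without Fat1 counts and hardly in the lines with them (log2 difference 6.59 ± 0.16 SE, edgeR adjusted p = 3.54e-15).

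Ly6k shared its low line with a gene beside it. Ly6g6g, of the same family, had 0 counts in IL6Myc-2, against 1.37, 1.19 and 1.51 CPM in IL6Myc-1, 1.55, 1.92 and 1.95 in IL6Myc-3, 2.33, 2.22 and 1.66 in IL6Myc-4 and 1.08, 1.48 and 0.996 in IL6Myc-5 (edgeR adjusted p = 1.67e-08). In those 4 lines its levels were far below those of Ly6k. No transcript of Ly6g6g was found for the count of 31-base words. Whether its reads were shared with Ly6k or another gene was therefore not tested. Lynx1, on the same side of Ly6k, was called higher in IL6Myc-2, with 20.6, 21.0 and 22 CPM, but IL6Myc-4 was as high, with 20.9, 21.9 and 20.6 CPM (log2 difference 1.11 ± 0.07 SE against the mean of 4, adjusted p = 4.03e-10).

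On the X chromosome, a member of each of 2 tandem arrays was low together with some of its relatives. Rhox2h, of the homeobox genes expressed in reproductive tissues, had 0, 0.0386 and 0 CPM in IL6Myc-1, against 31.7, 31.6 and 31.7 in IL6Myc-2, 2.26, 3.37 and 2.90 in IL6Myc-3, 9.69, 8.86 and 8.39 in IL6Myc-4 and 3.52, 3.86 and 4 in IL6Myc-5. Rhox2d had 0 counts in IL6Myc-1, against 46.8, 54.0 and 50.4 CPM in IL6Myc-2, 5.52, 5.03 and 4.04 in IL6Myc-3, 2.18, 3.24 and 3.64 in IL6Myc-4 and 0.225, 0.210 and 0.291 in IL6Myc-5 (edgeR adjusted p = 1.35e-09). Both were highest in IL6Myc-2 and at 0 or 1 count in IL6Myc-1. Rhox2g also had 0 counts in IL6Myc-1, against means of 0.124 to 12.7 CPM in the other lines (adjusted p = 1.07e-06). Rhox2e, between them, was not called, with 3 counts in IL6Myc-1, against 0 to 2.72 CPM as means of the other lines (adjusted p = 0.692). IL6Myc-3 and IL6Myc-5 were at 0 for Rhox2e, and the fit was imprecise (log2 difference -0.99 ± 2.09 SE). Whether Rhox2e differs from the other copies cannot be told from it.

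Rhox5, the gene on the other side of Rhox2h, was lower in IL6Myc-1 without being at 0. It had 0.740, 0.989 and 0.889 CPM in IL6Myc-1, against 76.2, 75.9 and 73.6 in IL6Myc-2, 5.68, 5.50 and 4.81 in IL6Myc-3, 8.16, 8.18 and 7.95 in IL6Myc-4 and 96.5, 103 and 104 in IL6Myc-5 (log2 difference -4.89 ± 0.09 SE, edgeR adjusted p = 9.59e-17). In IL6Myc-5 Rhox5 was at its highest while Rhox2d and Rhox2g were at their lowest outside IL6Myc-1. Since 68.2% of the 31-base words of Rhox2h occur in other genes, above all in Rhox2g, the split of reads among the Rhox2 copies is uncertain.

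Xlr4a, of the X-linked lymphocyte-regulated genes, had 0.173, 0.0787 and 0.0982 CPM in IL6Myc-5, against 10.4, 10.6 and 9.77 in IL6Myc-1, 12.4, 12.3 and 14 in IL6Myc-2, 10.5, 8.81 and 9 in IL6Myc-3 and 10.03, 10.6 and 8.44 in IL6Myc-4. Xlr4b had 0, 0.0785 and 0 CPM in IL6Myc-5, against 0.430 to 1.42 CPM in the other 12 libraries (edgeR adjusted p = 4.68e-06). Xlr4b did not overlap between IL6Myc-5 and any other line, while for Xlr4a the rule asked for such a gap. Of the 31-base words of Xlr4a, 84.8% occur in other genes, most of them in Xlr4c, so that the levels of the copies are uncertain. Xlr3c, a more distant relative, was called higher in IL6Myc-5, with 0.871, 1.06 and 1.04 CPM, but IL6Myc-3 was higher still, with 9.15, 10.3 and 9.41 CPM (log2 difference 1.51 ± 0.32 SE against the mean of 4, adjusted p = 1.02e-03). Under limma that difference had the opposite sign. Xlr3a, the gene next to Xlr4a, was read at 77.1 CPM in IL6Myc-5, against 25.3 to 91.0 CPM as means of the other lines, and Xlr3b at 0.155 CPM, against 0.0627 to 1.31 CPM. Neither was called, so that of the 4 tested relatives of Xlr4a only Xlr4b was lower in IL6Myc-5.

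**Figure D3:**
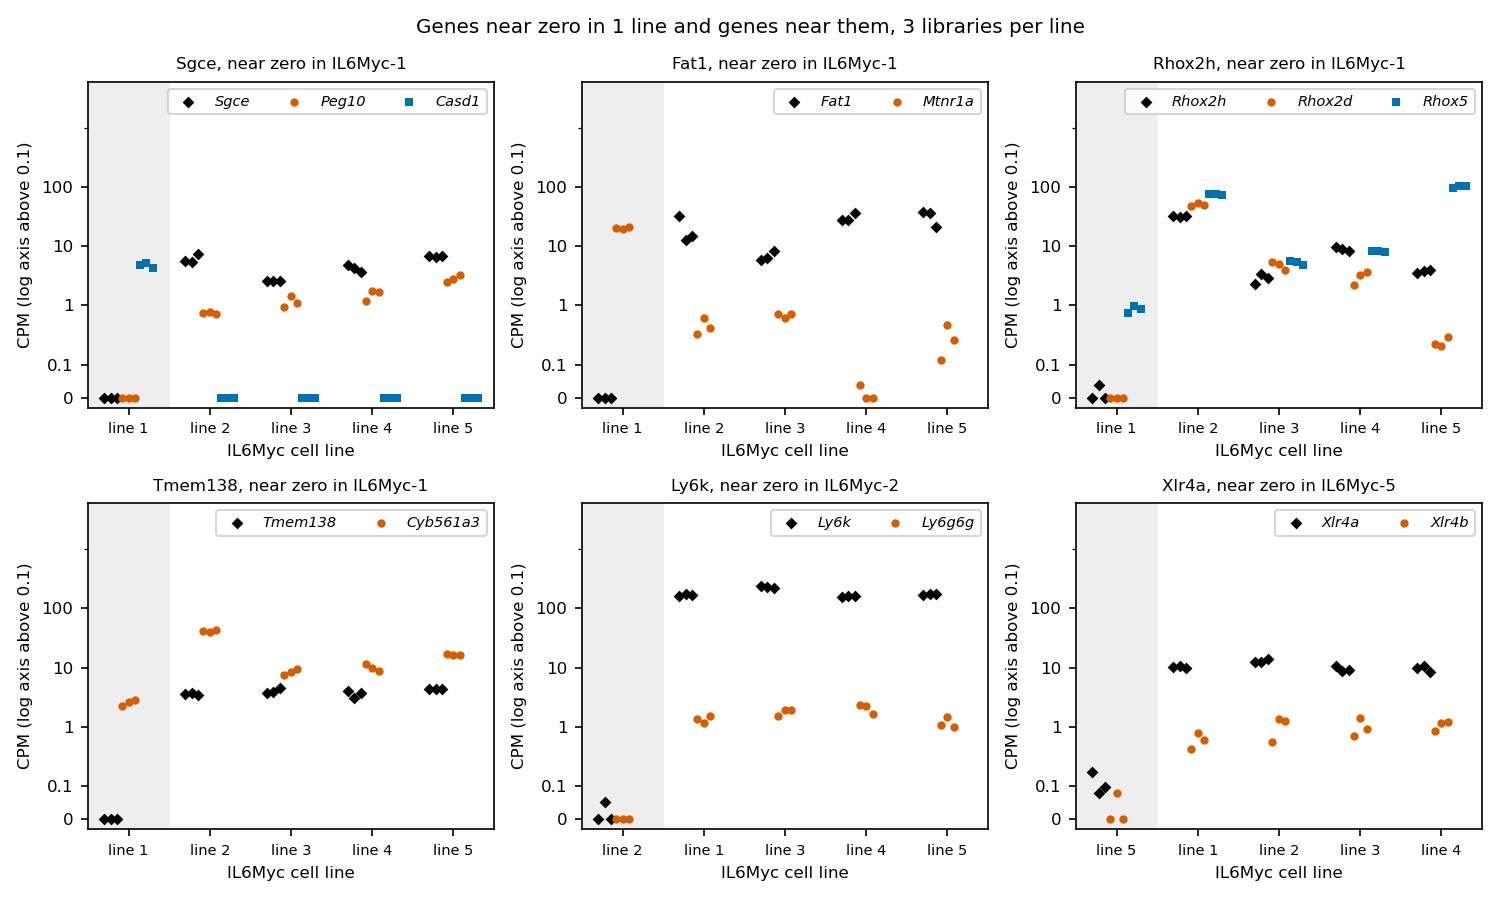
Level in CPM, on an axis linear up to 0.1 and logarithmic above, of 6 members (black diamonds) and of genes near them, in the 3 libraries of each line. The line near zero for the member comes first in each panel on a grey ground. Peg10, Rhox2d, Ly6g6g and Xlr4b are at or near 0 in the same line as the member, Rhox5 and Cyb561a3 are reduced there, and Casd1 and Mtnr1a are at their highest there.

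Tmem138 overlaps Cyb561a3, a gene for a cytochrome b561, in the annotation. Cyb561a3 had 2.25, 2.62 and 2.80 CPM in IL6Myc-1, against 41.4, 39.9 and 42.9 in IL6Myc-2, 7.43, 8.62 and 9.36 in IL6Myc-3, 11.5, 9.98 and 8.84 in IL6Myc-4 and 17.2, 16.4 and 16.4 in IL6Myc-5 (log2 difference -2.72 ± 0.10 SE, edgeR adjusted p = 7.68e-13). It was lowest in the line without Tmem138 counts, though still read there. Tmem216, on the other side of Tmem138 and also a gene of cilia, was at 6.44 ± 0.322 CPM in IL6Myc-1, against 5.40 to 6.77 CPM as means of the other lines, and was not called (adjusted p = 0.698). Of the 31-base words of Tmem138, 33.7% occur in other annotated genes, and whether the counting used the strand of reads is not stated.

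Further neighbours were called at other loci. Near Adcy6, the small GTPase gene Rnd1 was at 0.312 ± 0.114 CPM in IL6Myc-1, against 1.45 to 5.16 CPM as means of the other lines (log2 difference -2.95 ± 0.29 SE, edgeR adjusted p = 1.24e-07). The calcium channel subunit gene Cacnb3 was called lower there too (-1.03 ± 0.06), but its IL6Myc-1 mean of 17.1 CPM was no lower than the 16.6 CPM of IL6Myc-2, and without IL6Myc-1 replicate 1 the difference was -0.96 and not called. Olfr1259, Cmc1, Ssc5d, Arhgef25 and Arhgef18 were also lower in IL6Myc-1 than the mean of the other 4, by log2 differences of -2.44 to -1.13. IL6Myc-1 was not the lowest line for 2 of these 5: the mean of Olfr1259 was 0.0850 CPM there, against 0.0290 CPM in IL6Myc-5, and that of Arhgef18 29.2 CPM, against 21.9 CPM in IL6Myc-4. Gtsf1l, Fam83b and Tgfbr2, the type II receptor of TGF-beta, were higher in IL6Myc-1, by 2.27, 2.31 and 1.09. In IL6Myc-4, Ect2l, Tnfaip3 and Decr1 were lower than the mean of the other 4, with log2 differences of -2.65, -1.98 and -1.07, and none of the 3 was called lower than each other line singly. IL6Myc-2 was lower still for Ect2l (0.162 CPM in IL6Myc-4, 0.143 CPM in IL6Myc-2) and for Decr1 (1.49 CPM in IL6Myc-4, 0.981 CPM in IL6Myc-2). Tnfaip3, the ubiquitin-editing inhibitor of NF-kB known as A20, was at 1.83 ± 0.737 CPM in IL6Myc-4, against 2.42 to 16.4 CPM (adjusted p = 3.68e-07). Nacad and Gm5103 were called higher in IL6Myc-4, and Msantd1 in IL6Myc-5. Nacad rested on 1 library with 2.47 CPM beside 0.518 and 0.486 CPM in the other 2, and without that library it was too low to be tested. Decr1 lost its call without IL6Myc-4 replicate 1 or 3 (-0.99 and -0.93), and Gm5103 without IL6Myc-4 replicate 2 (0.98).

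Relatives of the members by name or by family list were taken next, as a reading of whether related genes shared the low level. Of 108 tested relatives of 25 members, 14 were called lower (13.0%), beside 5.72% of all tested genes weighted by line, and 8 higher (7.41%), beside 5.20%. The median log2 difference over the 108 was -0.04. For IL6Myc-1 it was 10 of 41 lower (24.4%), beside 8.11%, and 3 higher (7.32%), beside 4.39%. For IL6Myc-4 it was 2 of 54 lower (3.7%), beside 4.37%, and 4 higher (7.41%), beside 5.28%. For IL6Myc-2 it was 1 of 9 lower, beside 4.08%, and none higher, beside 8.60%, and for IL6Myc-5 1 of 4 lower, beside 3.19%, and 1 higher, beside 4.80%. Without the Rhox and Xlr genes, most of which are neighbours too and whose copies share sequence, 10 of 99 relatives were lower (10.1%), beside 5.7%, and 7 higher (7.07%), beside 5.26%. Without Insr and Igfbp3, which are members for another line, 6 of 106 relatives were higher (5.66%), beside 5.21%. A lower call against each of the other 4 lines was met by 7 relatives: Rhox2d, Rhox2g, Rhox5, Igfbp2, Igfbp5, Sh3rf2 and Xlr4b. Without the Rhox and Xlr genes 3 of these were left. The share of all tested genes with such a call was not computed, so this count is only a description. For Igfbp2 the call set 0 counts in IL6Myc-1 against 4 counts in IL6Myc-4, near the limit of counting.

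The insulin and insulin-like growth factor genes hold 2 members, Insr near zero in IL6Myc-1 and Igfbp3 near zero in IL6Myc-4, and 6 of the 13 other listed genes were tested for each. In IL6Myc-1, Igfbp2 had 0 counts, against 59.5, 57.3 and 59.3 CPM in IL6Myc-2, 6.46, 6.88 and 5.81 in IL6Myc-3, 0.0411, 0.0880 and 0.0444 in IL6Myc-4 and 6, 5.67 and 5.29 in IL6Myc-5 (edgeR adjusted p = 2.10e-09). Igfbp5, another binding protein, had 1.25, 0.830 and 1.15 CPM in IL6Myc-1, against 46.1, 48.5 and 46.5 CPM in IL6Myc-4 and 5.91 to 18.7 CPM in the remaining 9 libraries. It was lower in IL6Myc-1 (-3.97 ± 0.10 SE, adjusted p = 6.60e-15) and higher in IL6Myc-4 (2.76 ± 0.06 SE, adjusted p = 5.50e-16). Igfbp2 was thus at or near 0 in both of these lines, and Igfbp5 was at opposite ends of its range in them.

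The receptors Igf1r and Igf2r and the adaptor Irs2 were not called in either line. For Igf1r the level was 56.9 ± 5.14 CPM in IL6Myc-1, with 91.6 ± 6.90 CPM in IL6Myc-4, against means of 58.6 to 70.4 CPM in the other 3 lines. Insr in IL6Myc-4 and Igfbp3 in IL6Myc-1 are among the 8 relatives counted as higher, but both are members themselves, and the mean of the other 4 holds the line for which they were chosen as near zero, so these 2 calls are no result.

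Other relatives that were lower in IL6Myc-1 were Rab11fip4 (-2.39), the thioesterase gene Acot1 (-1.7), B4galnt4 (-1.45), the adenylyl cyclase gene Adcy7 (-1.17) and Ssh3 (-1.06), each against the mean of 4 by edgeR. Rab11fip4 at 0.930 ± 0.0811 CPM in IL6Myc-1 was no lower than in IL6Myc-3, its lowest other line, at 0.813 CPM. Rab11fip2 (1.03) and Rbms1 (1.08) were higher in IL6Myc-1. Rbms1 stood at 187, 188 and 196 CPM in IL6Myc-1, against 52.0 to 112 CPM in the other 12 libraries. Ssh3 and Rab11fip2 lost their calls without IL6Myc-1 replicate 1 (-0.92 and 0.98). In IL6Myc-4, Pard3b (-2.59) and Dnajc12 (-1.32) were lower. Pard3b was at 0.226 CPM in IL6Myc-4, close to the 0.240 CPM of IL6Myc-2.

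The level of the members among the 4 lines that express them was not used by the rule beyond its floor of 2 CPM, and there it could be tested. Of the 44 genes, 28 differed among those 4 lines by an edgeR F-test, with the top line 1 log2 unit or more above the bottom one (63.6%). The share was 26.2% over all tested genes and 15.1% over those at 2 CPM or more in each of the 4 lines, both weighted by line. The median span was 1.38 log2 units for the members, beside 0.61 for all tested genes, which include genes under 2 CPM in some of the lines. By line, the first share beside a count is that of all tested genes and the second that of genes at 2 CPM or more. For genes near zero in IL6Myc-1 the count was 18 of 26 (69.2%, beside 25.0% and 14.1%). For IL6Myc-4 it was 9 of 12 (75.0%, beside 28.1% and 16.8%), and for IL6Myc-3 its 1 gene was called (beside 29.9% and 18.1%). None of the 3 genes near zero in IL6Myc-2 (beside 25.7% and 14.5%) and none of the 2 near zero in IL6Myc-5 (beside 29.3% and 17.7%) was called, although 2 of the 3 and both of the 2 passed the adjusted p alone.

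The widest spans were those of Crocc2 (3.86 log2 units, edgeR adjusted p = 5.10e-15), Rhox2h (3.78, adjusted p = 8.37e-14), Sox4 (3.71, adjusted p = 4.33e-15), Arfgef3 (3.61, adjusted p = 4.43e-13) and Ctbp2 (3.33, adjusted p = 1.54e-11). The narrowest were those of Phlpp1 (0.23, edgeR adjusted p = 0.255), Jcad (0.30, adjusted p = 0.0749) and Tmem138 (0.37, adjusted p = 0.130), for which a difference beyond the spread between libraries was not detectable. Ly6k had a span of 0.54 (edgeR adjusted p = 2.23e-07). As plain ratios of line means, the highest of the 4 lines was under 2 times the lowest for 15 members and over 4 times for 13, up to 16.3 for Sox4.

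**Figure D4:**
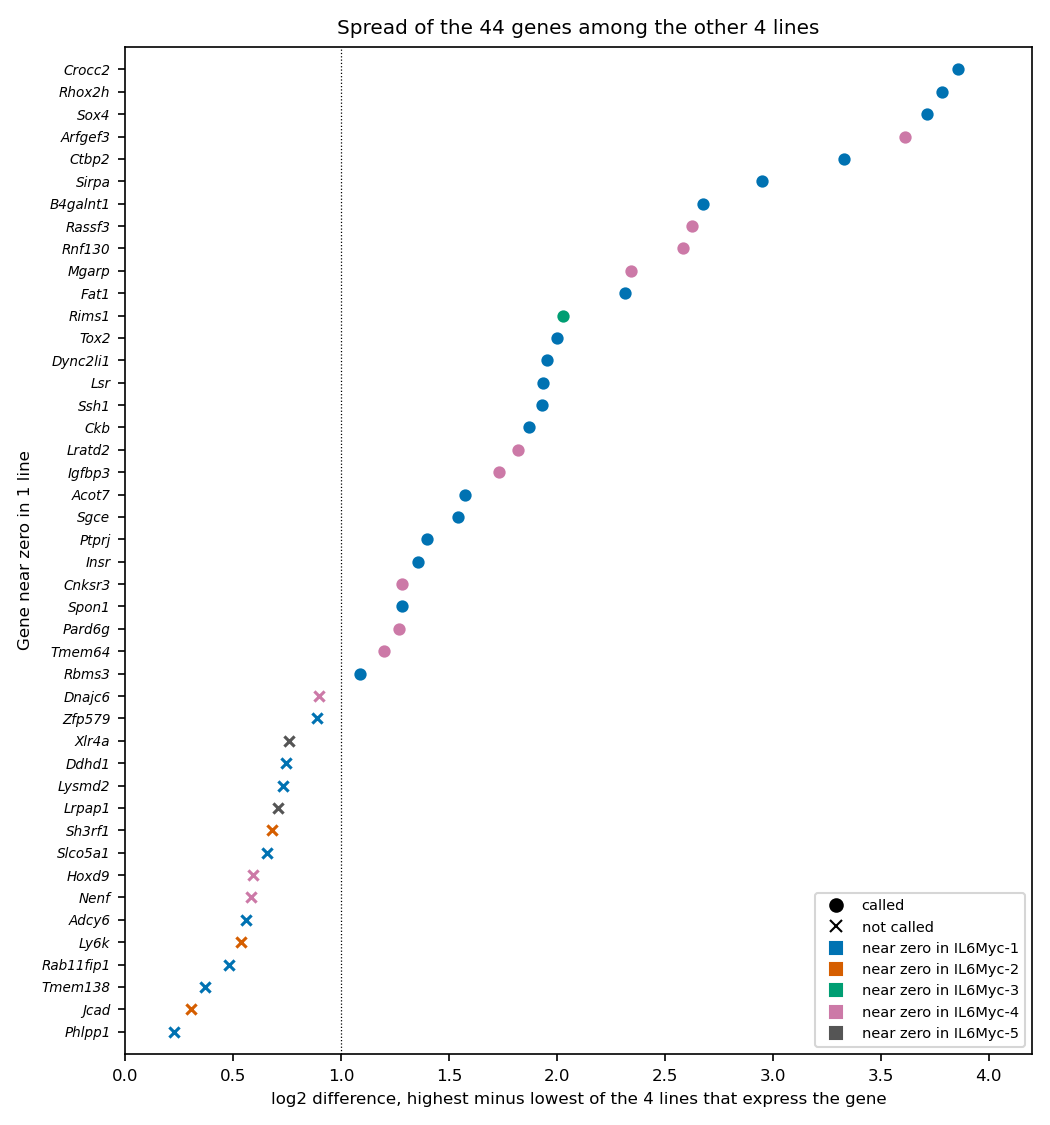
Log2 difference between the highest and the lowest of the 4 lines that express each of the 44 genes, with the colour naming the line near zero. Filled circles were called (adjusted p under 0.05 and at least 1 log2 unit, dotted line) and crosses were not. The 28 called genes run from Rbms3 at 1.09 to Crocc2 at 3.86, and all genes near zero in IL6Myc-2 or IL6Myc-5 lie left of the dotted line.

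For the lines with more than 3 members, the second lowest line varied. For the 26 genes near zero in IL6Myc-1, the next lowest line was IL6Myc-2 for 10, IL6Myc-3 for 6, IL6Myc-4 for 5 and IL6Myc-5 for 5. The highest was IL6Myc-4 for 8, IL6Myc-3 and IL6Myc-5 for 7 each and IL6Myc-2 for 4. For the 12 genes near zero in IL6Myc-4, each of the other lines was next lowest for 3 genes, and IL6Myc-1 was highest for 6, IL6Myc-5 for 4, IL6Myc-2 for 2 and IL6Myc-3 for none.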

How the data were processed

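Per the labels' protocols, RNeasy mini kit extracts went into TruSeq Stranded Total RNA libraries. The submitters' processing notes list Trim Galore 0.4.0, DESeq2 and GRCm39, and which aligner or quantifier was used is not given in the sources used here. Although named for TPM, the table's deposited values were taken as estimated counts, since its columns sum to 19068543 to 41165599. A correction for transcript length in those counts, if one was made, would carry over into the levels. Levels are CPM, each estimated count divided by the sum of its column and scaled to a common total, without TMM factors. The deposited table holds 32434 entries under 32371 names, and the 118 entries that share a name were not eligible.

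The members and the lists of neighbours, relatives and markers were chosen with earlier results of these data known. All members are named by their low line, and values per library are given for up to 6 members per low line with the highest mean over the other lines and for called neighbours and relatives, up to 10 per line.

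For tests, counts were rounded and fitted in edgeR 4.0.16 (R 4.3.3) by quasi-likelihood to all 15 libraries, with the line as the only factor and TMM scaling, over the 11773 entries that reached 1 CPM in 3 or more libraries. All 44 members were among them. P-values were adjusted by Benjamini-Hochberg over all tested entries, and the procedure was checked on simulated counts. The alternatives were DESeq2 1.42.0, limma 3.58.1 on log2(CPM + 1) and log2(CPM + 5), other filters and thresholds, a replicate block and leaving out each library. No 2 libraries of a line were alike within sampling noise (chi-square per degree of freedom 4.51 to 19.6). Symbols matched the GRCm38.p6 gene table for 98.8% of entries. Gene order and promoter windows come from that assembly, not from the build of the submitters. Shared 31-base words were counted in GENCODE M21 transcripts. The share passed 10% for 10 of the 44 members. Among these were also B4galnt1 (19.9%), Ckb (17.5%) and Ptprj (11.5%), whose reads could be shared with other genes.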

Additional observations from a re-analysis of the deposited data

How the results depend on the processing

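The rule gave 44 genes. With an upper threshold of 1 CPM it gave 82 and with 5 CPM 16, and with a lower threshold of 0.1 or 0.5 CPM 31 and 64. Asking it of every single library gave 36, TMM-scaled sizes 43, and leaving out each library 43 to 46. Of neighbours, 17 were called lower and 9 higher. A filter of 5 CPM gave 11 and 4, and limma on log2(CPM + 5) 4 and 1. Calls against each of the other lines singly gave 10 and 4, and a log2 difference of at least 4 (added after seeing the data) 6 and 2. With the nearest 1 gene on each side it was 11 and 5 of 87 genes, with the nearest 5 genes 31 and 18 of 433. The weighted share of all tested genes was 6.46% lower and 4.95% higher for the nearest 3. It was not computed for the other 2 windows, so their counts are only a description. Of relatives, 14 were called lower and 8 higher, with limma on log2(CPM + 5) 7 and 2, and singly 7 and 1. Among the 4 expressing lines 28 members were called, with limma on log2(CPM + 5) 18. The larger pseudocount shrinks differences of low genes by construction. The cause of the other shifts was not tested. For calls made singly, the share of all tested genes was not computed.

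Leaving out each library gave 16 to 20 neighbours lower and 7 to 10 higher, 14 to 15 relatives lower and 7 to 8 higher, and 27 to 29 members called among the 4 lines. Xlr3c in IL6Myc-5 reversed under limma, to -0.20 on log2(CPM + 1) and -0.21 on log2(CPM + 5). Without IL6Myc-5 replicate 3 Rbms3 was no longer called among the 4 lines, at 0.98, and without IL6Myc-3 replicate 1 Dnajc6 was called, at 1.11. DESeq2 gave 20 and 9 neighbours, 18 and 8 relatives and 28 members.

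The replicate numbers did not pair the libraries: the correlation of deviations between libraries of the same number ran from -0.08 to 0.11 and passed 0.1 in 1 of 30 pairs. With a replicate block the counts were 17 lower and 9 higher neighbours, 15 lower and 8 higher relatives and 28 members.

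Levels near zero rest on 0 to 18 counts over a line, so their order within the low line was not resolved at this depth.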

Other observations

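A pair of genes next to each other was near zero in IL6Myc-1 without both meeting the rule. Zcchc2, the neighbour of Phlpp1, had 0 counts in IL6Myc-1 but also in IL6Myc-2, and means of 3.67, 3.68 and 10.5 CPM in IL6Myc-3, IL6Myc-4 and IL6Myc-5. The comparison of IL6Myc-1 with the mean of the other 4 could not be fitted stably with a second line at 0 and made no call (edgeR adjusted p = 1).

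Partners of 2 members were looked up after the values of the members were seen, with no test. Cd47, the ligand of Sirpa, was at 102, 104 and 104 CPM in IL6Myc-1, where Sirpa had 1 count, against 67.2 to 140 CPM in the other 12 libraries. Of the receptor genes served by Lrpap1, only Lrp8 and Lrp1 are given here, and a link of their levels to that of Lrpap1 was not tested. Lrp8 was at 8.01, 11.9 and 9.22 CPM in IL6Myc-5, against 16.1 to 32.0 CPM elsewhere, without overlap. Lrp1 was at 1.67, 2.59 and 2.31 CPM in IL6Myc-5, within the 0.772 to 5.06 CPM of the other libraries.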
